A study of Mus musculus with 4 samples.

Results

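The genes described here are the 3 D cyclins (Ccnd1, Ccnd2 and Ccnd3), the 2 kinases that pair with them (Cdk4 and Cdk6) and 5 genes of cyclin-dependent kinase inhibitors (Cdkn2a, Cdkn2c, Cdkn2d, Cdkn1b and Cdkn1c). They were taken by gene symbol, and all 10 had a row among the 23234 genes of the deposited RNA sequencing table. The cells were mouse erythroblasts of the extensively self-renewing kind (ESREs), red cell precursors from the early fetus that keep dividing in culture. Levels were used for 3 libraries, 1 per group. These were proliferating cells with a short hairpin RNA against the histone methyltransferase gene Setd8 (the knockdown), cells with a non-targeting hairpin after 6 h in maturation medium (the maturing control), and proliferating cells with the non-targeting hairpin (the proliferating control). All 3 libraries thus came from cells that carried a hairpin. The knockdown library is matched to its label by the target and by a number in its title that the labels do not explain. Knockdown cells in maturation medium were not analysed here. The labels name no replicate, clone or pool, so no difference below has a replicate check.

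D cyclins are made in response to growth signals and activate Cdk4 and Cdk6, which phosphorylate the retinoblastoma protein family and so release E2F factors for entry into S phase. Inhibitors of the INK4 family (encoded here by Cdkn2a, Cdkn2c and Cdkn2d) bind Cdk4 and Cdk6 themselves, while those of the Cip/Kip family (Cdkn1b and Cdkn1c) bind complexes of cyclins with Cdks, above all those with Cdk2. In red cell precursors cyclin D3 is known to set how many divisions precede terminal maturation, and maturation ends with exit from the cell cycle.

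Start regions are shown for 2 loci: Cdk4, the highest of the 10 genes in every library, and Cdkn2a, which had the largest fold decrease among them in the knockdown. RefSeq windows of 300 bases, 250 before and 50 after a transcript start, are printed 5′ to 3′ on the strand of the gene in build GRCm38.p6, with matches to searched motifs in capitals. The Cdk4 window lies on the plus strand at chr10:127063285-127063584. Its capitals mark 4 copies of the E-box CACGTG, the sequence that Myc with Max is known to bind. Of 32851 such windows, 8 windows of 6 genes held at least 4 copies, while 7.15% held at least 1.
Cdk4: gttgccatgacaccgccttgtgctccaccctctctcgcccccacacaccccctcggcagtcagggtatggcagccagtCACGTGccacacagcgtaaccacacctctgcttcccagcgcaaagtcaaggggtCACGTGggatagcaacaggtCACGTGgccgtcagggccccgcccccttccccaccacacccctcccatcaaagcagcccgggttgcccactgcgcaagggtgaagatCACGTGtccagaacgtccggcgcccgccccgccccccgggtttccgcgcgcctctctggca
The other 2 windows are the 2 starts that RefSeq gives for Cdkn2a, both on the minus strand. They are shown because 1 FPKM value covers transcripts from both. By the known layout of the locus, the first exon of p19Arf lies upstream of that of p16Ink4a, and the proteins share later exons in different reading frames. The upstream window, chr4:89294570-89294869, held 45 CpG pairs, and 98.35% of all windows held that many or fewer. Its capitals mark TTTCCCGC, 1 of 4 searched forms of the E2F site (TTTGGCGC, TTTCCCGC, TTTCGCGC and TTTGCCGC), which 2.26% of windows held. That share is over all windows, not matched for base composition. Their median was 52.7% G and C, against 77% in this window. The downstream window, chr4:89282143-89282442, held 12 CpG pairs and no searched motif.
Cdkn2a upstream start: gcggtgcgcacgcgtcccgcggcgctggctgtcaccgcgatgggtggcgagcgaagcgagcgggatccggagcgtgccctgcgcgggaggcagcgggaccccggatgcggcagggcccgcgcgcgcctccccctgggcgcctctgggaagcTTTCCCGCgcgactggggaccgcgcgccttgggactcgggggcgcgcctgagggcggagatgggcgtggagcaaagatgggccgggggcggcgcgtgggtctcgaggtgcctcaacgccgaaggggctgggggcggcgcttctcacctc
Cdkn2a downstream start: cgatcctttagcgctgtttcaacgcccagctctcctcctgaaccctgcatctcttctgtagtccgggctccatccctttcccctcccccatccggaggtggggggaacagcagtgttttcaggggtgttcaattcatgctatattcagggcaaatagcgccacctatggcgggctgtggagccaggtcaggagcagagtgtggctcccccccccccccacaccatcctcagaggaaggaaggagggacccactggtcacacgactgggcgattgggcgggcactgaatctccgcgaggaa
Windows were at hand for 7 of the 10 genes, 10 windows in all. Besides those above, Cdk6 and 1 of the 2 starts of Cdkn2c held 1 E-box each. No window of the 7 genes held a GATA motif (AGATAA and AGATAG, and both with T as first base, in 29.8% of all windows) or the STAT form TTCNNNGAA (8.30% of windows). These shares and that of the E-box are likewise over all windows, not matched for base composition. Both strands were searched, and matches did not overlap in these windows. A match or its absence describes these letters only.

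Levels are given in FPKM (fragment counts of a gene corrected for transcript length and for library size), so levels of different genes can be set side by side. Cdk4 and Ccnd3 came first and second in all 3 libraries, and the inhibitors Cdkn1b, Cdkn2c and Cdkn2d lay in the middle. Cdk6 ranked eighth in each. Of the 10 genes, 7 reached 1 FPKM in every library, and Cdkn1c reached it in none. In the knockdown the lower end of the order was Ccnd2, Ccnd1, Cdk6, Cdkn1c and Cdkn2a, from 1.83 down to 0.32 FPKM. In the proliferating control it was Cdkn2c, Cdkn2a, Cdk6, Ccnd1 and Cdkn1c, from 4.61 down to 0.098 FPKM. With 1 library per group, neighbours in these orders have no replicate spread against which to set their distance.

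**Figure D1:**
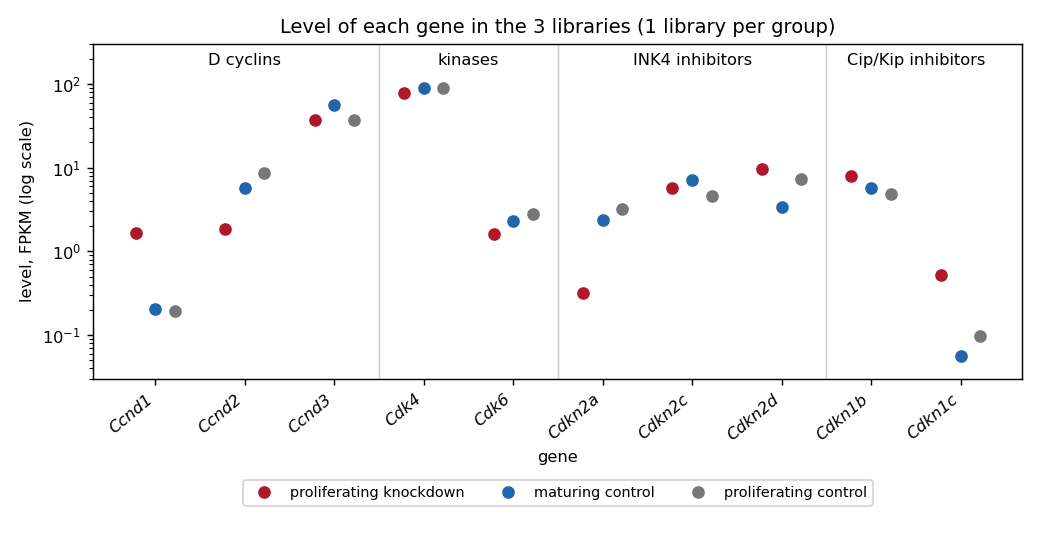
Level of each gene in FPKM (log axis) in the proliferating knockdown (red), maturing control (blue) and proliferating control (grey), 1 library each. Cdk4 lies between 77.4 and 88.7 FPKM, while Ccnd1, Ccnd2, Cdkn2a and Cdkn1c have knockdown points well apart from both controls.

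Setd8 was at 9.28 FPKM in the knockdown, 25.9 FPKM in the maturing control and 25.1 FPKM in the proliferating control, which put the knockdown at 37.0% of the proliferating control (q = 0.0122 in the authors' deposited table). The erythroid transcription factor gene Gata1 was at 61.1, 65.5 and 52.8 FPKM in these libraries in the same order, and all 12 listed erythroid entries reached 1 FPKM in at least 1 library. Their sum was 854 FPKM in the knockdown, 3392.5 FPKM in the maturing control and 2132 FPKM in the proliferating control. Globin genes made up most of each sum. The entry Hba-a1,Hba-a2 was at 265, 1747 and 843 FPKM in the same order, and Hbb-b1,Hbb-b2 at 280, 963 and 798 FPKM. By value, 10 entries were lower and 2 higher in the knockdown than in the proliferating control, with 3 called lower. Rhag, 1 of the 2 higher, was at 119, 56.2 and 77.9 FPKM and was not called. Alas2, the erythroid enzyme that starts haem synthesis, stood at only 0.09 FPKM in the knockdown, against 4.41 FPKM in the maturing control and 4.55 FPKM in the proliferating control. Of 10 mast cell and basophil markers, all 10 had a higher value in the knockdown than in the proliferating control, 7 of the 9 tested being called. Their summed level was 571 FPKM in the knockdown, 59.4 FPKM in the maturing control and 112 FPKM in the proliferating control, and none of them was at 0. The 6 megakaryocyte markers summed to 9.93 FPKM in the knockdown, 2.98 FPKM in the maturing control and 3.14 FPKM in the proliferating control. Of these, 3 were called higher in the knockdown, and Ppbp was at 0 throughout. The granulocyte and monocyte markers summed to 1.01, 0.262 and 0.328 FPKM in the same order, with Elane and Lyz2 at 0 in all 3 libraries. Among them Itgam was called higher in the knockdown, at 0.124 FPKM, and was listed at 0 in the proliferating control. The 4 fibroblast markers summed to 0.227 FPKM in the knockdown, 0.0158 FPKM in the maturing control and 0.0215 FPKM in the proliferating control, and 1 of them, Pdgfra, was called higher in the knockdown. The 4 lymphocyte markers summed to at most 0.0349 FPKM in any library, and none was tested. The part of these marker shifts in the results below was not tested. In such bulk RNA, fewer cells of a type and less RNA per cell cannot be told apart. Very low genes gave the knockdown library 1.44 times and the maturing control library 1.55 times the depth of the proliferating control. The absolute depth is unknown.

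Knockdown and control cells that were both proliferating were set against each other first, libraries that differ in hairpin. Whether less Setd8 made the differences was not tested. Ccnd1 and Cdkn1c rose and Ccnd2 and Cdkn2a fell in the knockdown, while the other 6 genes, among them the most abundant cyclin and kinase, were not called. A gene is called where the adjusted p-value (q) of the authors' deposited table is at most 0.05. All 10 genes were tested there, and 4 were called, 2 higher and 2 lower, where 9.05% of the 11665 genes tested were called, 5.81% higher and 3.24% lower. The median log2 ratio of FPKM + 1 was 0.12 over the 10 genes and -0.05 over the 9611 genes at 1 FPKM or more in a library. The sign of the members' median depends on how it is taken, since their mean was -0.13. The standard errors below are those of the authors' model, the log2 ratio divided by the test statistic, and carry no replicate variation between cultures.

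The 3 D cyclins did not move together. Ccnd1 (chromosome 7, 152115835 to 152125830 in mm9, as deposited) encodes cyclin D1, the family member best known as a target of growth factor signalling. It was at 1.67 FPKM in the knockdown, against 0.192 FPKM in the proliferating control, with the maturing control at 0.208 FPKM. The knockdown was thus the 1 library of the 3 in which it passed 1 FPKM. The authors' deposited table gave a log2 ratio of 3.12 with a model standard error of 0.54 and q = 4.47e-07. Ccnd2, encoding cyclin D2 (chromosome 6, 127075726 to 127162437), was at 1.83 FPKM in the knockdown, 5.66 FPKM in the maturing control and 8.75 FPKM in the proliferating control. Its knockdown level was 20.9% of that in the proliferating control and the lowest of the 3. In the authors' deposited table its log2 ratio was -2.26 (model standard error 0.47, q = 5.43e-05). The row 9330179D12Rik has the same locus as Ccnd2 and stayed at or below 0.0402 FPKM in all 3 libraries. Ccnd3, encoding cyclin D3 (chromosome 17, 47641999 to 47748441), was at 36.8 FPKM in the knockdown, against 37.4 FPKM in the proliferating control. The log2 ratio in the authors' deposited table was -0.03, with a 95% interval of the authors' model from -0.88 to 0.83. Its sign turned positive under all 4 other scalings of the libraries (0.02 to 0.09 on the scale of FPKM + 1). Bysl overlaps the deposited locus of Ccnd3. It was at 6.38 FPKM in the knockdown, against 8.33 FPKM in the proliferating control, and no strand setting is given in the sources used here.

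The makeup of D cyclin RNA differed between the libraries. Summed D cyclin levels were 40.3 FPKM in the knockdown, 61.2 FPKM in the maturing control and 46.4 FPKM in the proliferating control. Ccnd3 made up 91.3% of that sum in the knockdown, 90.4% in the maturing control and 80.7% in the proliferating control. Ccnd2 made up 4.54%, 9.24% and 18.9% in the same libraries and order. Ccnd1 made up 4.14% in the knockdown, near the share of Ccnd2 there, against 0.339% in the maturing control and 0.414% in the proliferating control. These shares are free of the scaling between libraries.

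**Figure D2:**
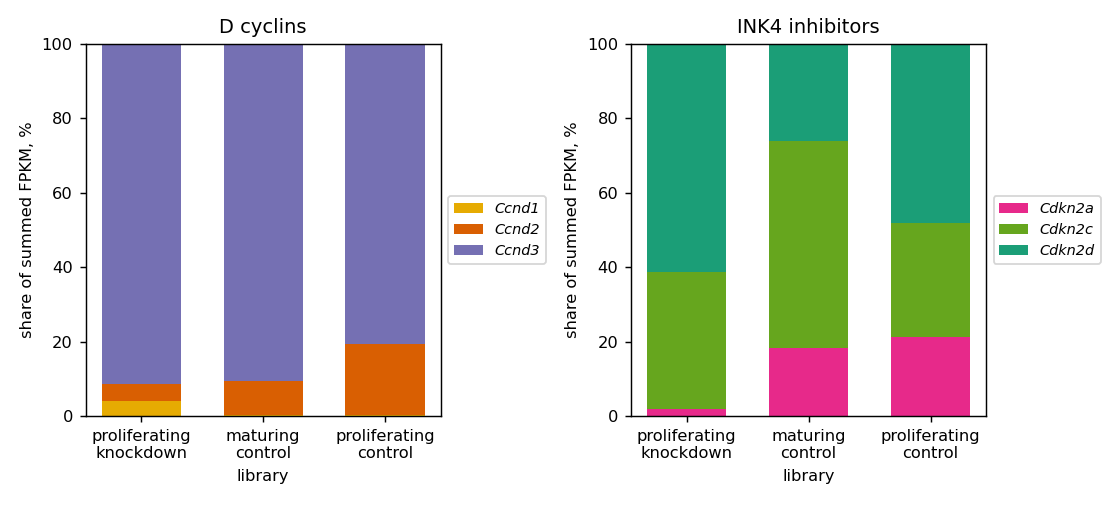
Share of each gene in the summed FPKM of the D cyclins (left) and of the 3 INK4 genes Cdkn2a, Cdkn2c and Cdkn2d (right), in percent, by library. Ccnd3 takes 91.3%, 90.4% and 80.7% of D cyclin RNA from left to right. Cdkn2a, whose value counts p16Ink4a and p19Arf transcripts together, takes 2.05%, 18.4% and 21.3% of the sum of the 3 genes.

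Neither kinase gene was called. Cdk4 (chromosome 10, 126500658 to 126504338) was at 77.4 FPKM in the knockdown, against 88.2 FPKM in the proliferating control. The log2 ratio in the authors' deposited table was -0.19, with a 95% interval of the authors' model from -0.96 to 0.58. Cdk6 (chromosome 5, 3344311 to 3522225) was at 1.62 FPKM in the knockdown, against 2.82 FPKM in the proliferating control, a log2 ratio of -0.80 in the authors' deposited table with an interval from -1.89 to 0.29. For Cdk6 that interval includes decreases of more than 3-fold as well as no change. Cdk4 held 98.0% of the summed RNA of the 2 kinases in the knockdown and 96.9% in the proliferating control. Myc, whose product binds the E-box that recurs in the Cdk4 window, was at 28.4 FPKM in the knockdown, 28.6 FPKM in the maturing control and 45.5 FPKM in the proliferating control, and was not called.

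Among the INK4 genes Cdkn2a fell while Cdkn2c and Cdkn2d were not called. Cdkn2a (chromosome 4, 88920376 to 88940523) was at 0.32 FPKM in the knockdown, 2.36 FPKM in the maturing control and 3.21 FPKM in the proliferating control. The knockdown value was 9.97% of that in the proliferating control, and both controls were above 2 FPKM. The authors' deposited table gave a log2 ratio of -3.33 (model standard error 0.70, q = 7.79e-05). Whether p16Ink4a, p19Arf or both transcripts were lower cannot be told from this 1 value. The neighbouring INK4 gene Cdkn2b, which encodes p15Ink4b and lies 11.7 kb from Cdkn2a, was at 0.0847 FPKM in the knockdown, 0.666 FPKM in the maturing control and 1.14 FPKM in the proliferating control. It was also called lower in the authors' deposited table (log2 ratio -3.75, q = 1.66e-07). Mtap, on the other side of Cdkn2a at a distance of 93.4 kb, was at 9.01 FPKM in the knockdown, against 6.86 FPKM in the proliferating control, and was not called.

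Cdkn2c, which encodes p18Ink4c (chromosome 4, 109333480 to 109337977), was at 5.72 FPKM in the knockdown, against 4.61 FPKM in the proliferating control. Its log2 ratio in the authors' deposited table was 0.31 (interval -0.78 to 1.41). Cdkn2d, which encodes p19Ink4d, was at 9.58 FPKM in the knockdown, against 7.24 FPKM in the proliferating control, a log2 ratio of 0.40 in the authors' deposited table (interval -0.63 to 1.44). The deposited locus of Cdkn2d, chromosome 9 from 123836859 to 123839607, lies between Xcr1 and Ccr1. RefSeq places the gene between Kri1 and Ap1m2 in GRCm38. Of 1176 genes of chromosome 9 matched by symbol, it was the 1 gene whose start differed by more than 1 Mb between the table and RefSeq, so which sequence its FPKM values count is uncertain. The summed level of the 3 INK4 genes was 15.6 FPKM in the knockdown, against 15.1 FPKM in the proliferating control. With Cdkn2b added, the order turned, to 15.7 FPKM in the knockdown, against 16.2 FPKM in the proliferating control. More of the first 3-gene sum came from Cdkn2d than from either other gene in both libraries, so its uncertainty carries over. Cdkn2a, whose value counts p16Ink4a and p19Arf transcripts together, made up 2.05% of that sum in the knockdown and 21.3% in the proliferating control.

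Of the Cip/Kip members, Cdkn1c rose and Cdkn1b was not called. Cdkn1c encodes p57Kip2 and is imprinted, with expression from the maternal allele (chromosome 7, 150644243 to 150646955). It was at 0.52 FPKM in the knockdown, 0.0562 FPKM in the maturing control and 0.098 FPKM in the proliferating control. All 3 values are below 1 FPKM, and both controls lie below 0.1 FPKM. The authors' deposited table gave a log2 ratio of 2.41 (model standard error 0.66, q = 0.00497), but on the scale of FPKM + 1 the ratio was 0.47. Cdkn1b encodes p27Kip1, an inhibitor known to accumulate when erythroid cells leave the cycle (chromosome 6, 134870418 to 134875543). It was at 7.88 FPKM in the knockdown, against 4.80 FPKM in the proliferating control. The log2 ratio in the authors' deposited table was 0.72, with an interval from -0.27 to 1.70 and q = 0.775. The third Cip/Kip gene, the p53 target Cdkn1a, which encodes p21Cip1, stood above both at 19.2 FPKM in the knockdown, against 35.8 FPKM in the proliferating control, and was not called (q = 0.29 in the authors' deposited table).

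**Figure D3:**
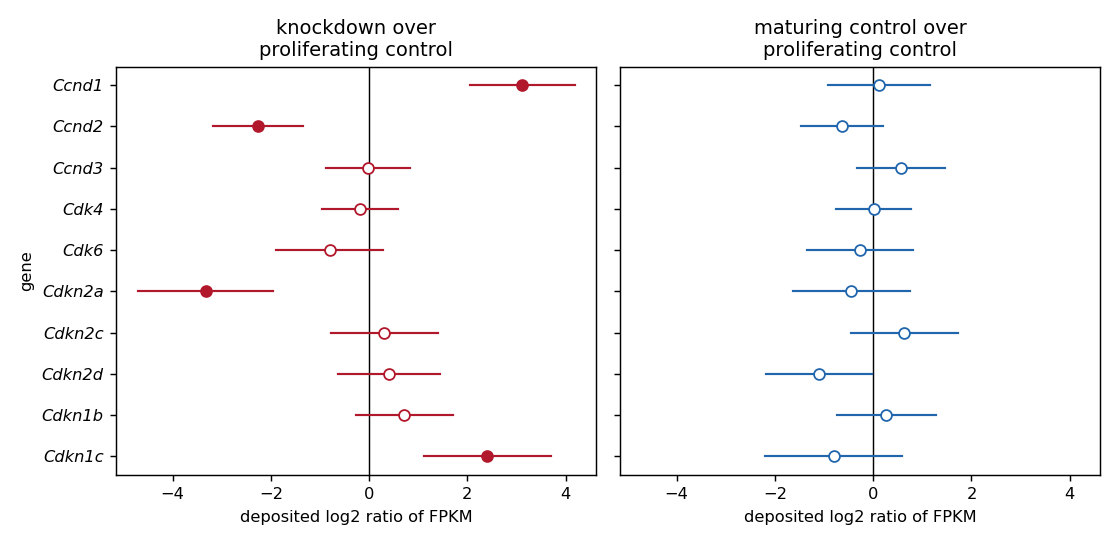
Log2 ratio of FPKM as deposited, with 95% intervals of the authors' model, for the knockdown (left) and the maturing control (right), each over the proliferating control. Filled points are called at q of at most 0.05: Ccnd1 (3.12) and Cdkn1c (2.41) above 0 and Ccnd2 (-2.26) and Cdkn2a (-3.33) below 0 on the left, and none on the right.

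Control cells after 6 h in maturation medium were next set against control cells that stayed in proliferation, the same library as in the knockdown comparison. None of the 10 genes was called in the authors' deposited table at q of at most 0.05, where 1.75% of 11298 tested genes were. At an unadjusted p under 0.05 there was 1, Cdkn2d. Which sequence its FPKM values count is uncertain, as said above. Its level was 3.35 FPKM in the maturing control and 7.24 FPKM in the proliferating control, and the maturing control was the lowest of the 3 libraries. The authors' deposited table gave a log2 ratio of -1.11 (model standard error 0.55, q = 0.348). The median log2 ratio of FPKM + 1 was -0.02 over the 10 genes and 0.01 over the 9611 genes at 1 FPKM or more.

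The D cyclins kept the order Ccnd3, Ccnd2, Ccnd1 in the maturing control. Ccnd3 was at 55.3 FPKM in the maturing control and 37.4 FPKM in the proliferating control, 1.48 times as high, with a log2 ratio of 0.56 and an interval from -0.33 to 1.45 in the authors' deposited table. Ccnd2 was at 5.66 FPKM in the maturing control and 8.75 FPKM in the proliferating control, a log2 ratio of -0.63 in the authors' deposited table (interval -1.46 to 0.20). Ccnd1 was at 0.208 FPKM in the maturing control and 0.192 FPKM in the proliferating control. The ratio of Ccnd3 to Ccnd2 was 9.78 in the maturing control and 4.28 in the proliferating control, and 20.1 in the knockdown. Cdk4, at 88.7 FPKM in the maturing control and 88.2 FPKM in the proliferating control, had a log2 ratio of 0.01 in the authors' deposited table whose sign turned on the TPM scale. Its interval ran from -0.76 to 0.77. Cdk6 was at 2.34 FPKM in the maturing control and 2.82 FPKM in the proliferating control.

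The inhibitors differed in direction without a call. Cdkn2c was at 7.13 FPKM in the maturing control and 4.61 FPKM in the proliferating control, with a log2 ratio of 0.63 in the authors' deposited table and an interval from -0.46 to 1.72. Cdkn2a was at 2.36 FPKM in the maturing control and 3.21 FPKM in the proliferating control. Cdkn1b was at 5.79 FPKM in the maturing control and 4.80 FPKM in the proliferating control, and Cdkn1c at 0.0562 and 0.098 FPKM. Within the INK4 sum of 12.8 FPKM in the maturing control, Cdkn2c made up 55.5% and Cdkn2d 26.1%, against 30.6% and 48.1% of 15.1 FPKM in the proliferating control. The ratio of Cdkn2d to Cdkn2c was 0.47 in the maturing control and 1.57 in the proliferating control, with 1.67 in the knockdown. Summed Cdk4 and Cdk6 stood at 7.09 times the INK4 sum in the maturing control and at 6.05 times it in the proliferating control, with 5.06 times in the knockdown. The kinase sum itself was 91.0 FPKM in the maturing control and 91.1 FPKM in the proliferating control. The INK4 sum holds Cdkn2d, whose counted sequence is uncertain, so these shares and ratios carry that limit. With Cdkn2b added, the INK4 sum was 13.5 FPKM in the maturing control and 16.2 FPKM in the proliferating control.

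The table also sets the knockdown against the maturing control, libraries that differ in both hairpin and medium. The same 4 genes were called there, where 11.6% of 9241 tested genes were called, 7.22% higher and 4.38% lower. The authors' deposited table gave log2 ratios of 3.01 for Ccnd1, 3.21 for Cdkn1c, -1.63 for Ccnd2 and -2.88 for Cdkn2a, with q between 1.3e-06 and 0.0109. For Cdkn2d, at 9.58 FPKM in the knockdown, against 3.35 FPKM in the maturing control, it gave 1.52 with q = 0.065. The uncertainty over the counted sequence of Cdkn2d holds here too. These ratios reuse libraries of the other 2 comparisons and are no separate evidence.

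Genes of the retinoblastoma and E2F proteins, which act downstream of the D cyclin kinases, showed no call in either comparison. Of all tested genes, 9.05% were called for the knockdown and 1.75% for maturation. Of the 9611 genes at 1 FPKM or more, 44.3% had a higher value in the knockdown and 52.6% in the maturing control. Of 13 retinoblastoma family, E2F and dimerisation partner genes, 3 had a higher and 10 a lower value in the knockdown than in the proliferating control, and the median log2 ratio of FPKM + 1 was -0.05. For the maturing control these were 7 and 6, with a median of 0.09. E2f4, the most abundant E2F gene in the controls, was at 10.4 FPKM in the knockdown, 21.1 FPKM in the maturing control and 17.2 FPKM in the proliferating control. Rb1, the retinoblastoma gene, was at 7.36, 8.09 and 7.46 FPKM in the same order. Among 9 genes of cyclins E and A, Cdk2 and its phosphatases and inhibitory kinase, 7 had a lower value in the knockdown (median -0.15) and 8 a higher value in the maturing control (median 0.19). The phosphatase gene Cdc25b was the widest of these, at 3.77 FPKM in the knockdown, 3.61 FPKM in the maturing control and 1.46 FPKM in the proliferating control, and was not called.

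Later cell cycle genes were split the same way by value, and again none was called. Of all 9611 genes at 1 FPKM or more in a library, 44.3% had a higher value in the knockdown and 52.6% a higher value in the maturing control than in the proliferating control. All 6 genes of mitotic cyclins, Cdk1 and the Cks subunits had lower values in the knockdown (median -0.33) and higher values in the maturing control (median 0.28) than in the proliferating control. Of 13 proliferation markers all 13 had a lower value in the knockdown (median -0.50), and 12 had a higher value in the maturing control (median 0.34). The 3 genes of the Cdk-activating kinase, Cdk7, Ccnh and Mnat1, had a median of -0.20 on the same scale in the knockdown, and of -0.06 when control cells were maturing, with no call. Of 11 genes for turnover of p27 and the D cyclins, 1 (Usp2) was called for the knockdown, a share near the 9.05% of all tested genes, and none for maturation. Usp2 encodes a deubiquitinase known to stabilise cyclin D1, and it was at 2.31 FPKM in the knockdown, 0.437 FPKM in the maturing control and 0.413 FPKM in the proliferating control. The authors' deposited table gave Usp2 a log2 ratio of 2.48 (q = 0.000271). Skp2, the ubiquitin ligase subunit that targets p27, was at 2.60 FPKM in the knockdown, 3.05 FPKM in the maturing control and 3.78 FPKM in the proliferating control, without a call.

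**Figure D4:**
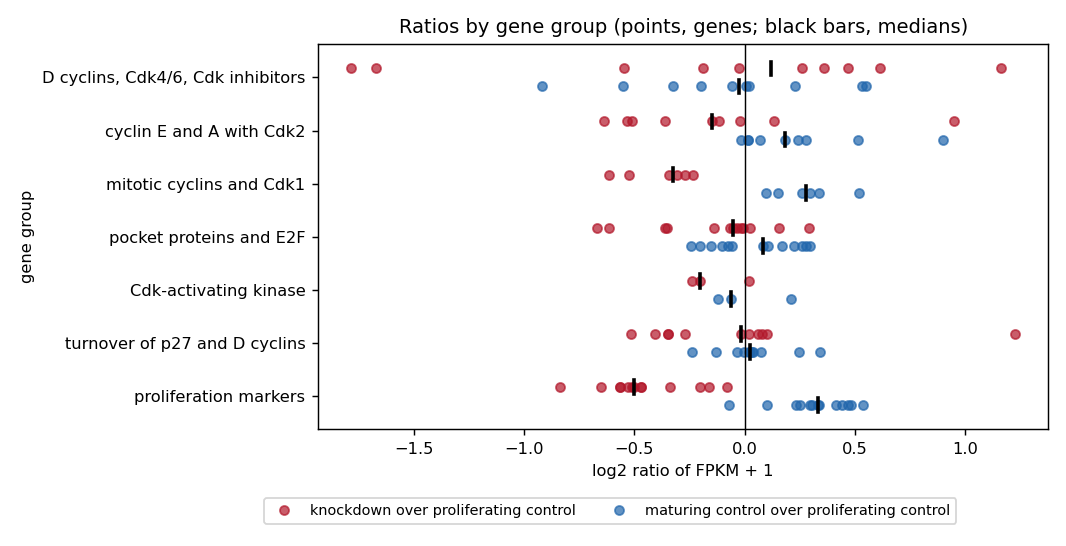
Log2 ratio of FPKM + 1 of each gene (points) with the median of its group (black bar), for the knockdown (red) and the maturing control (blue), each over the proliferating control. The 10 D cyclin, Cdk4/6 and inhibitor genes spread to both sides of 0 for the knockdown (median 0.12), while all 13 proliferation markers lie below 0 (median -0.50).

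Of 14 matched genes listed as regulators upstream of D cyclins and inhibitors, 13 were tested, and 1 was called in each comparison, where 9.05% of all tested genes were called for the knockdown and 1.75% for maturation. Id2, an inhibitor of helix-loop-helix transcription factors, was called higher in the knockdown, at 171 FPKM against 5.37 FPKM in the proliferating control. Myb, a transcription factor gene of proliferating progenitors, was called lower in the maturing control, at 18.9 FPKM against 42.2 FPKM in the proliferating control (q = 0.0485 in the authors' deposited table). Myb stood at 66.4 FPKM in the knockdown, where it was not called.

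Likeness of pattern was measured as the distance between genes in the 2 log2 ratios of FPKM + 1 over the proliferating control, which rest on 3 libraries. About 5117 other genes at 5 FPKM or more in a library were compared. The nearest to Ccnd2 were Phlda2, Ank and Cmtm7, at distances from 0.12 to 0.24 on the log2 scale. The nearest to Cdkn2a were Cdk2ap1, Gadd45a and Plvap, at 0.13 to 0.24. Their deposited log2 ratios for the knockdown were -1.71, -1.69 and -1.96 in the authors' deposited table, against -3.33 for Cdkn2a, which FPKM + 1 shrinks to -1.67. Cdk2ap1, which encodes a Cdk2-binding protein, was at 19.9 FPKM in the knockdown, 56.6 FPKM in the maturing control and 64.9 FPKM in the proliferating control. The nearest to Ccnd1 were Crtap, Ripk3 and Fam111a, at 0.04 to 0.06. Their log2 ratios for the knockdown in the authors' deposited table were 1.32, 1.28 and 1.27, against 3.12 for Ccnd1, which FPKM + 1 shrinks to 1.16. The likeness to Cdkn2a and Ccnd1 thus rests on that scale.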

How the data were processed

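The authors deposited 1 table of pairwise comparisons in the layout of Cuffdiff output. Cufflinks 2.0.2, Cuffdiff, FastQC 0.10.1 and mm9 are named in the submitters' processing notes, while the aligner, annotation and strand setting were not given in the sources used here. Per the file headers, each row holds 2 library names and the authors' value for each, read as FPKM, with a log2 ratio, a statistic, a p-value and a q-value. Infinite ratios and statistics are deposited as the largest double. The statistic is signed opposite to the log2 ratio, so its size was used.

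Deposited q-values of the 4 members called in the knockdown lay nearer to an adjustment over the 3 comparisons together, and those of Cdk6 and Cdkn1b nearer to one over the knockdown comparison alone, so which tests the authors adjusted over is not known. Genes were matched by exact symbol. No test was run, since each group had 1 library, and calls are those of the authors' deposited table (q at most 0.05 among genes it tested). All marks matched that threshold. Model standard errors are the log2 ratio over the statistic, and 95% intervals are 1.96 times these. Counting intervals need a depth that FPKM values do not give. Sizes used log2 of FPKM + 1. The step that adjusts p-values and derives errors was tested on simulated data. Each simulated statistic was built from a known error, so the return of that error checks the arithmetic alone. It does not show how the authors' statistic was made. Members, gene lists and rules were chosen with earlier results of these data known; the nearest neighbours and motifs were chosen after values were seen. Named genes were the 10 members, called genes of each pathway list (up to 4) and the 3 of most like pattern to each called member, which for Cdkn1c are not reported here. Marker lists are given as counts and sums. Others named (Alas2, Gata1, Rhag, the globin genes, Ppbp, Elane, Lyz2, Itgam, Pdgfra, Mtap, Tssc4, Cdc25b, E2f4, Rb1, Skp2, Myc, Cdkn1a, Bysl, Slc22a18, Kcnq1 and Phlda2) were chosen after their values were seen. Of the 15 listed upstream regulators 14 matched a row. Promoter windows and gene order came from RefSeq tables of GRCm38.p6, a build other than that of the deposited table, and no coordinates were converted. Python 3.11.15, numpy 2.4.6, pandas 2.3.3, scipy 1.17.1 and matplotlib 3.10.9 were used.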

Additional observations from a re-analysis of the deposited data

How the results depend on the processing

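Of the 4 genes called for the knockdown, 4 passed at q of at most 0.01, 3 at a size of at least 1 on the log2 scale of FPKM + 1, and 3 with the deposited p-values re-adjusted over genes at 1 FPKM or more in the pair. Over genes at 5 FPKM or more only Ccnd2 was left, 1 gene, because the other 3 were below that level and not tested. For maturation the count was 0 under these 4 settings. The median over members for the knockdown was 0.12 and turned to -0.13 as a mean and -0.03 over the 9 members at 1 FPKM or more. For maturation it was -0.02 and turned to 0.01 over those 9 and 0.12 over the 6 at 5 FPKM or more. Of 120 recomputed values of single genes, 5 changed sign, all of Ccnd3 in the knockdown or Cdk4 in maturation, none of them called. No called gene changed direction. An equal upper quartile moved the median of 4364 abundant genes by 0.11 for the knockdown, and the other 3 scalings by less than 0.1. The size of low genes hangs on the pseudocount: Ccnd1 ranged from 0.36 (pseudocount 5) to 2.60 (pseudocount 0.1) and Cdkn2a from -0.63 to -2.98. With FPKM + 1, Ccnd3 made up 87.3% of D cyclins in the knockdown, 87.7% in the maturing control and 77.8% in the proliferating control. No paired analysis was possible because each group has 1 sample, and for the same reason no replicate was left out.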

Other observations

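Cdkn1c lies in an imprinted gene cluster. Its 2 nearest neighbours on each side at 1 FPKM or more in a library were taken by position after values were seen. In the knockdown against the proliferating control 1 was called higher, 1 lower and 2 not called, where 9.05% of all tested genes were called. Neighbours taken in the same way were also called near Cdkn2a and Cdkn2c, so called neighbours are not particular to Cdkn1c. Slc22a18, 12.7 kb from Cdkn1c, was at 3.61 FPKM in the knockdown, 1.49 FPKM in the maturing control and 0.752 FPKM in the proliferating control, and was called higher in the knockdown (q = 0.000604 in the authors' deposited table). Phlda2, which limits placental growth and lies 40.5 kb away, was at 4.66 FPKM in the knockdown, 12.5 FPKM in the maturing control and 19.8 FPKM in the proliferating control, and was called lower (q = 0.0023 in the authors' deposited table). The potassium channel gene Kcnq1, 31.3 kb away on the other side, was at 3.32 FPKM in the knockdown, listed at 0 in the maturing control and at 0.00399 FPKM in the proliferating control. It was not called against the proliferating control (q = 0.369 in the authors' deposited table) but was called higher against the maturing control (q = 0.00284 in the same authors' deposited table). Tssc4, 387 kb away, was at 8.94 FPKM in the knockdown, 10.3 FPKM in the maturing control and 10.2 FPKM in the proliferating control, and was not called. Allelic expression was not measured.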
